A study of Mus musculus with 237 samples.

Results

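Nephron progenitors of the mouse kidney at E18.5 (E is the embryonic day) were divided by Foxd1, a gene that marks the neighbouring interstitial lineage. The cells were taken from the 74 E18.5 wild-type cells labelled as cap mesenchyme and cells derived from it. Of these, 62 had Six2, the transcription factor that maintains nephron progenitors, at 1 RPKM or more. RPKM is a read count scaled by transcript length and library size. In 23 of the 62 cells Foxd1 was also at 1 RPKM or more, and these are called Foxd1-positive. The other 39 had Foxd1 under 1 RPKM and are called Foxd1-negative. The series holds 237 cells, each sequenced as a sample of its own.

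The 23 and 39 cells shared every label: wild-type genotype, mixed strain, E18.5, and pool 2 in their titles. Kidneys were dissociated with protease, and sorted cells were captured on the Fluidigm C1, a microfluidic device that lyses single cells. Neither the embryo of origin nor the reporter used to sort cap cells is labelled, so the cells are not independent animals and each set counts as 1 sample. No p-value was computed for that reason, and differences are set beside the SD between cells. For comparison, the series has 71 E18.5 wild-type interstitial cells, whose titles name FoxD1_GCE, and 18 E13.5 wild-type cap cells, also of mixed strain. The titles of both carry other dates than those of the E18.5 cap cells. Of the 71 interstitial cells 49 are of pool 3, as are the 18 E13.5 cells. Date, and in part pool, thus differ along with tissue or age in every comparison with these cells, and cannot be told apart from them.

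In the developing kidney, cap mesenchyme cells that express Six2 surround the tips of the ureteric bud, renew themselves and give rise to the epithelium of the nephron. A second mesenchymal population, marked by the forkhead factor Foxd1, lies around the cap and gives rise to the interstitium, pericytes and mesangium. The paired-box factor Pax2 acts in the cap, and the title of the series names it as a repressor of interstitial identity there. The question put to these cells was whether a progenitor that holds Foxd1 RNA also holds RNA of other interstitial genes.

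Foxd1 (Entrez gene 15229, mm10 chromosome 13, 98354245 to 98356705) ranged from 1.33 RPKM through a median of 8.65 to 25.98 in the positive cells. It was under 5 RPKM in 6 of them and at 10 or more in 8. The positive cells nearest the threshold had 1.33, 1.48 and 2.11 RPKM, and the negative cells nearest it had 0.895, 0.589 and 0.572. Foxd1 was above 0 in 8 of the 39 negative cells. In the interstitium 41 of 71 cells had Foxd1 at 1 RPKM, with a median of 14.6 among those 41 and a highest value of 122 RPKM. These levels chose the sets and are given as a description.

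Six2 (Entrez gene 20472, chromosome 17, 85684268 to 85688254) ranged from 14.7 through a median of 102 to 596 RPKM in Foxd1-positive cells. In Foxd1-negative cells it ranged from 2.53 through 66.5 to 310 RPKM. The ranges overlapped, and the 6 cells with Six2 under 10 RPKM were all Foxd1-negative. The highest Six2 value among the 12 cap cells below the threshold was 0.299 RPKM. Within the 62 cells the Spearman correlation of Foxd1 with Six2 was 0.08, over cells that share a pool and whose depth differs. Foxd1 was at 1 RPKM in 37.1% of the Six2 cells (exact Clopper-Pearson 95% interval 25.2 to 50.3), an interval that covers counting error only. Among the interstitial cells with Six2 the number was 8 of 19, and among the E13.5 cap cells with Six2 it was 3 of 14.

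**Figure D1:**
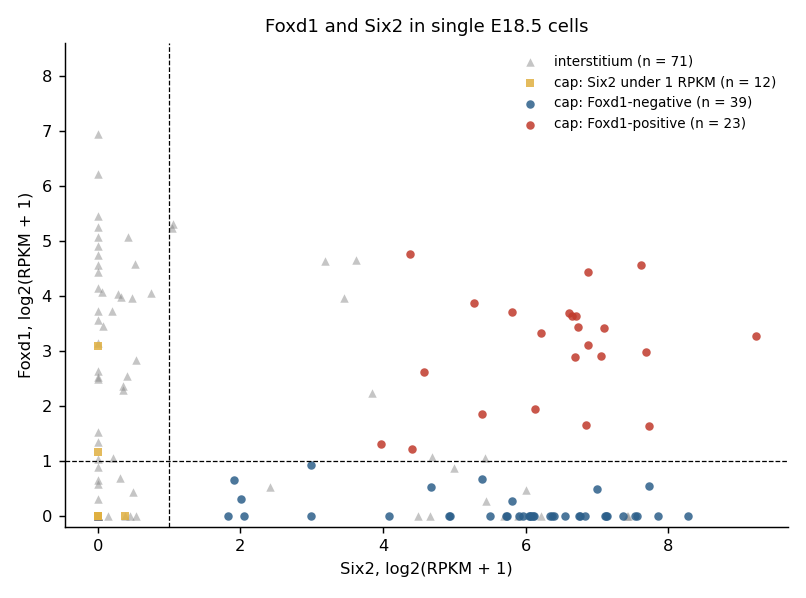
Foxd1 against Six2 in single wild-type E18.5 cap and interstitium cells, both as log2(RPKM + 1), with dashed lines at 1 RPKM. The 23 Foxd1-positive cap cells have Six2 from 14.7 to 596 RPKM, and the 6 cells with Six2 between 1 and 10 RPKM are Foxd1-negative.

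Both sets carried the genes of the nephron progenitor. Among the 62 cells, Sall1 was at 1 RPKM in 59, Crym in 56, Eya1 in 54, Pax2 in 53, Osr1 in 49, Itga8 in 48, Cited1 in 39 and Gdnf in 30. At least 4 of 7 progenitor genes were detected in 22 of 23 positive and 36 of 39 negative cells. Meox1 and Meox2 were found in 8 cells each and Dapl1 in 2. Lhx1, which marks the committed renal vesicle, was listed at 0 in all 62 cells, as were Ptprc (leukocytes), Pecam1 (endothelium), Podxl (podocytes) and Ret (ureteric tip). These are single markers, and other genes of some of those cell types were found. Wnt4, a gene of nephron commitment, was at 1 RPKM in 61 of the 62 cells. At least 3 genes of a podocyte list were at 1 RPKM in 21 of 23 positive and 37 of 39 negative cells. At least 3 of a ureteric list were in 1 and 2 cells.

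Read counts were not used here, so depth is unknown, and gene number, the genes at 1 RPKM or more in a cell, was taken as its proxy. Gene number had a lowest value, median and highest value of 2745, 5723 and 7136 in the positive cells and 3059, 5220 and 7215 in the negative cells. Foxd1-positive cells made up 5 of the 21 cells with the fewest genes, 9 of the middle 21 and 9 of the 20 with the most. A cell with more detected genes was thus somewhat more often Foxd1-positive, with a Spearman correlation of 0.21 between Foxd1 and gene number over the 62 cells. Xist together with a Y-linked gene was found in 0 positive and 5 negative cells. Of the 71 cells labelled interstitial, 6 had a mean log2(RPKM + 1) over 100 interstitium genes no higher than the highest of the 62 cells (2.72). Among the 12 cap cells with Six2 under 1 RPKM, which are in neither set, this mean reached 5.68. The part of gene number in the differences below was not tested beyond the values given beside them.

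Across the 11184 genes at 1 RPKM in 10% or more of either set, a difference is the mean log2(RPKM + 1) of positive cells minus that of negative cells. The median difference was 0.09. Genes higher by 1 log2 unit or more in positive cells numbered 465 (4.16%), and 122 (1.09%) were lower by as much. These counts moved with how the values were treated. They were 1592 and 497 with a pseudocount of 0.1 in place of 1. Among the 8 positive and 9 negative cells of matched gene number they were 1029 and 1504, so the excess of higher over lower genes turned round.

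As a list, regulators and markers of the nephrogenic interstitium differed between the sets by a small part of the spread between cells, while single members differed by more. Of 16 such genes, 10 passed the filter, and 0 were higher and 0 lower by 1 log2 unit, against 4.16% and 1.09% of all genes. In a list this short 0 is close to those shares. The median difference over all 16 was -0.01, against 0.09 over all genes tested. The score of the list, the mean log2(RPKM + 1) of its genes in a cell, was 1.79 ± 0.50 (SD, n = 23) in positive and 1.76 ± 0.37 (SD, n = 39) in negative cells. In the interstitium it was 3.28 ± 0.76 (SD, n = 71). The difference between the Six2 sets was 1.45% of the distance from Foxd1-negative cells to the interstitium.

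Meis1, a homeobox factor abundant in the renal interstitium (Entrez gene 17268, chromosome 11, 18880428 to 19018969), was found in like shares of both sets. It ran from 0 through a median of 0.309 to 126 RPKM in positive cells, with 10 of 23 at 1 RPKM. In negative cells it ran from 0 through 0.372 to 58.2 RPKM, with 16 of 39 at 1 RPKM. Of the 26 progenitors with Meis1, 10 had Foxd1, and of the 36 without it 13 had Foxd1, which are like shares. The interstitium had a Meis1 median of 178 RPKM, with 69 of 71 cells at 1.

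Meis2, a homeobox gene related to Meis1, was found in every cell of both sets. It had medians of 25.6 and 24.4 RPKM and a difference of -0.12. Penk, the enkephalin precursor gene that is strong in the interstitium, was at 1 RPKM in 4 of 23 positive and 7 of 39 negative cells, against 61 of 71 interstitial cells. Ntn1, which encodes the guidance cue netrin-1, was found in 2 positive and 6 negative cells. Penk and Ntn1 were thus rare in each set.

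Fat4, an atypical cadherin of the interstitium that signals to the cap, had the largest positive difference in the list. Its median was 0.292 RPKM and its highest value 38.2 in positive cells, with 9 of 23 at 1 RPKM. In negative cells the median was 0.0736 and the highest value 19.7, with 3 of 39 at 1 RPKM. The difference was 0.77, with SDs of 1.57 and 0.84, and the ranges overlapped. Among the alternatives run, the difference ran from -0.28 to 1.40. Aldh1a2, the retinaldehyde dehydrogenase that makes retinoic acid, was abundant in both sets, with medians of 200 and 155 RPKM and a difference of 0.50.

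The genes that define fibroblasts were low in both sets, while several matrix genes were not. Of 14 stromal and fibroblast genes, 7 passed the filter, and 0 were higher and 0 lower, against 4.16% and 1.09% of all genes. With 7 genes, 0 is close to those shares. The median difference over all 14 was 0.02. The score was 0.88 ± 0.55 (SD, n = 23) in positive and 0.92 ± 0.35 (SD, n = 39) in negative cells, against 4.11 ± 1.39 (SD, n = 71) in the interstitium. Col1a1 and Col3a1, fibrillar collagen genes, were each at 1 RPKM in 3 positive cells, with 4 and 3 negative cells. Col1a2 was at 1 RPKM in 8 of 23 and 12 of 39 cells. Pdgfra, the receptor that marks interstitial fibroblasts, was at 1 RPKM in 1 positive and 0 negative cells, and Dpt, Postn and Smoc2 were in none.

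Some genes of the same lists were lower in the positive cells or differed only in a few cells. Igfbp4, which encodes an IGF-binding protein, had medians of 4.41 RPKM in positive and 13.4 in negative cells and a difference of -0.95, with SDs of 2.22 and 2.77. Mfap4, a microfibril-associated gene, had medians of 2.73 and 5.84 RPKM and a difference of -0.58. Ifitm3, an interferon-induced gene strong in the interstitium, was at 1 RPKM in 4 positive cells and 1 negative cell, with a difference of 0.54. Of the 14 extracellular matrix genes, 9 passed the filter and 0 were higher or lower, close to the 4.16% and 1.09% of all genes. Their median difference was 0.12. Sparc, a collagen-binding matrix protein gene, had medians of 388 and 415 RPKM, and Vcan, the versican gene, had medians of 183 and 151 RPKM. Fbn1, the fibrillin-1 gene, was at 1 RPKM in 10 of 23 and 10 of 39 cells and differed by 0.74.

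The number of the 30 stromal and nephrogenic interstitium genes at 1 RPKM in a cell ran from 5 through a median of 9 to 17 in positive cells. In negative cells it ran from 6 through 8 to 12, and in interstitial cells from 7 through 19 to 25. The medians of the Six2 sets differed by 1 gene, and the upper end of the positive cells reached above every negative cell.

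That upper end was a few cells. At least 3 of 9 defining stromal genes (Col1a1, Col1a2, Col3a1, Pdgfra, Pdgfrb, Lum, Postn, Dcn and Dpt) were at 1 RPKM in 3 of 23 positive cells (13.04%, exact Clopper-Pearson 95% interval 2.78 to 33.6). The number was 0 of 39 negative cells, with an upper bound of 9.03%. The 3 cells had Foxd1 at 2.15, 6.83 and 6.49 RPKM. In the same order, Six2 was at 114, 206 and 132 RPKM and Pax2 at 31.9, 15.9 and 15.2 RPKM, so all 3 held progenitor transcription factors beside the collagens.

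The cell with most of these genes had 17 of 30, with Pdgfra at 13.4 RPKM, Col1a2 at 25.4, Meis1 at 16.3 and Fat4 at 6.93. The next had 16 of 30, with Col3a1 at 21.5 RPKM, Col1a1 at 13.4, Meis1 at 28.8 and Penk at 16.4. Levels in these cells were below the interstitial medians for Col1a1 (82.3 RPKM), Col1a2 (95.6), Col3a1 (60.2) and Meis1 (178). No doublet caller was used, and whether these libraries held more than 1 cell was not tested. Their gene numbers were 5400, 6226 and 5444, within the range of the other cells. Without the 2 cells that held 17 and 16 of the genes, the nephrogenic interstitium score difference was -0.04, the stromal and fibroblast one -0.15, and that of the list described next 0.08. These 2 cells were picked from the positive set by the genes of the first 2 lists, and no negative cell was left out. A fall in those differences was thus built into the choice, and the values are a description only.

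A second interstitial list was drawn from other cells. It holds the 100 genes with the largest excess in 49 interstitial cells of pool 3 over the 18 E13.5 cap cells, neither of which is in the Six2 sets. Age and date differ between those cells as well as tissue, and cannot be told apart in the list. Of the 100, 79 passed the filter, 3 were higher (Fos, Emp3 and Blvrb) and 0 lower, a share close to the 4.16% of all genes, and the median difference was 0.11 against 0.09 for all genes. Its score was 1.68 ± 0.42 (SD, n = 23) in positive and 1.52 ± 0.32 (SD, n = 39) in negative cells, against 4.73 ± 1.24 (SD, n = 71) in the interstitium. The difference of 0.16 was 4.95% of the distance to the interstitium, which holds the cells the list was drawn from.

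**Figure D2:**
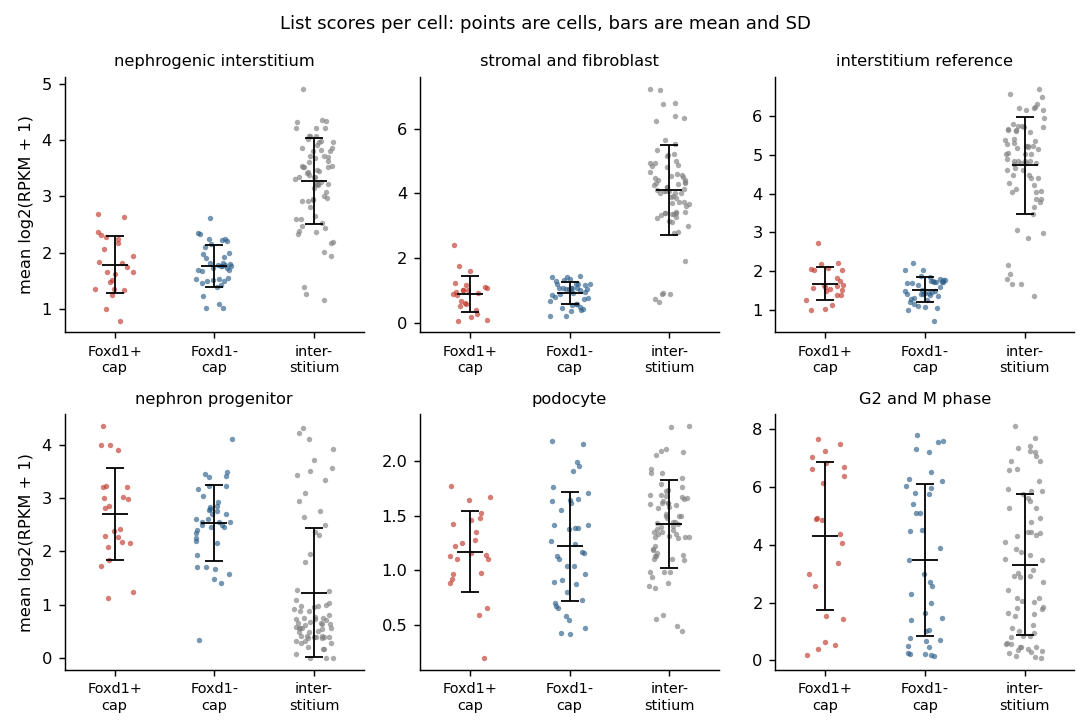
Mean log2(RPKM + 1) of 6 gene lists in each Foxd1-positive and Foxd1-negative cap cell and each interstitial cell, with bars for the mean and SD. On the interstitium reference list the cap sets lie at 1.68 and 1.52 and the interstitium at 4.73.

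Among the progenitors, pairs of interstitial genes were correlated no more than pairs of genes in general. Over the 105 pairs of the 15 stromal and nephrogenic interstitium genes found in at least 10% of the 62 cells, the median Spearman correlation was 0.04 and 2.86% of pairs reached 0.3. Over all pairs of 10426 genes the median was 0.05 and 3.68% reached 0.3. In the 71 interstitial cells the same 15 genes had a median of 0.06, and 20.95% of pairs reached 0.3. The share over all genes was not computed in the interstitial cells, so the 20.95% has no baseline and is a description only. Cells of 1 set share their pool and differ in gene number, which moves all pairs.

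Foxd1 itself followed none of these 15 genes closely over the 62 cells. Its median Spearman correlation with them was -0.02 and 0 reached 0.3, while 1.85% of all genes did. The highest values were 0.22 with Fat4 and 0.20 with Aldh1a2, and the lowest was -0.18 with Ntn1. The correlation with Meis1 was 0.01. In sparse values of this kind a weak correlation carries little information, and these are given as a description.

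Among progenitor genes, Pax2 differed most. Pax2 (Entrez gene 18504, chromosome 19, 44757394 to 44837869) ran from 1.89 through a median of 12.03 to 120 RPKM in positive cells and was at 1 RPKM in 23 of 23. In negative cells it ran from 0 through 4.99 to 36.96 RPKM and was at 1 RPKM in 30 of 39. The ranges overlapped: 12 negative cells lay below the lowest positive cell, and 4 positive cells lay above the highest negative cell. The mean log2(RPKM + 1) was 3.94 ± 1.40 (SD, n = 23) against 2.44 ± 1.48 (SD, n = 39), a difference of 1.50.

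The Pax2 difference stayed positive under every alternative run, from 0.73 with a pseudocount of 10 to 2.50 without cells holding 3 or more genes of the 14-gene stromal and fibroblast list, which left 9 positive and 14 negative cells. It was 1.40 at matched gene number and 0.90 without the cells high in a pseudogene, which were 5 of 23 positive and 8 of 39 negative cells. Within the positive cells the level of Foxd1 did not go with that of Pax2 (Spearman correlation -0.16, n = 23). The entry 1700039E22Rik overlaps Pax2 and was at 1 RPKM in 1 positive and 6 negative cells, and the table's counting of shared reads is not stated. Pax8, the paralogue of Pax2 that acts with it in nephron formation, had medians of 21.3 and 0.398 RPKM, with 17 of 23 and 19 of 39 cells at 1. Its difference was 0.96, with SDs of 2.78 and 2.94.

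**Figure D3:**
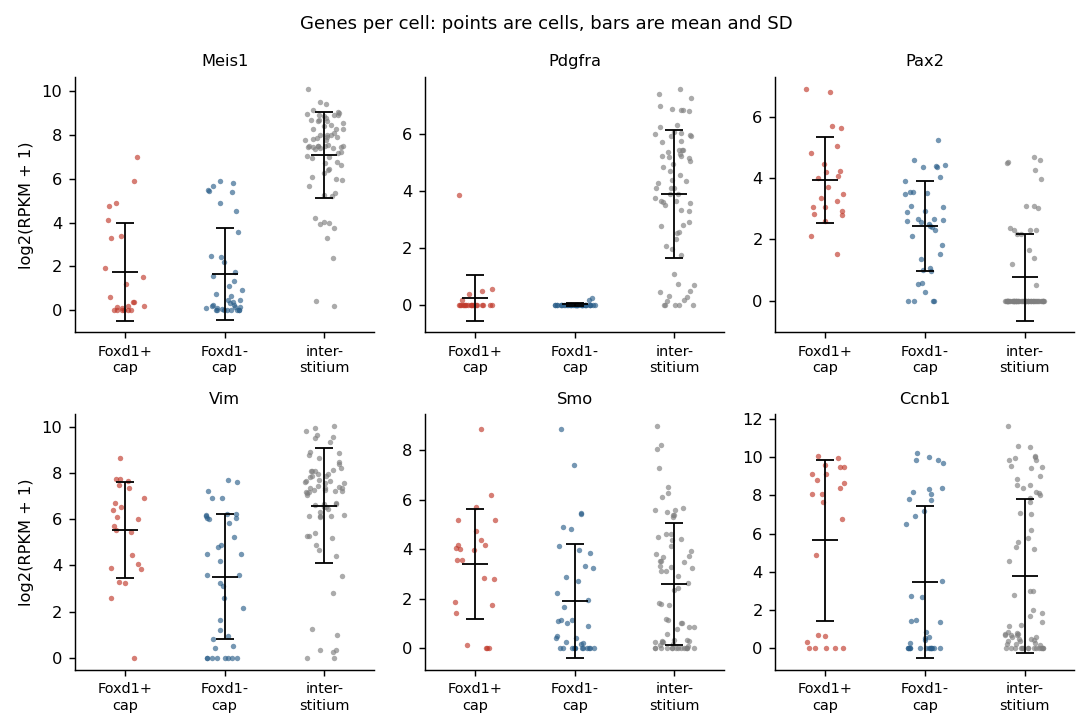
log2(RPKM + 1) of 6 genes in each cell of the Foxd1-positive cap, Foxd1-negative cap and interstitium, with bars for the mean and SD. Meis1 and Pdgfra are highest in the interstitium, and Pax2 is lowest in the interstitium and highest in the Foxd1-positive cap cells.

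The rest of the progenitor program differed less. Of 14 nephron progenitor genes, 12 passed the filter, 1 was higher (Pax2) and 0 lower, against 4.16% and 1.09% of all genes. The median difference was 0.13. The score was 2.71 ± 0.86 (SD, n = 23) against 2.53 ± 0.71 (SD, n = 39). Osr1, an early regulator of intermediate mesoderm, differed by 0.50, and Sall1, a zinc finger factor needed for progenitor renewal, by 0.38. Eya1, a transcriptional partner of Six2, differed by -0.16, and Crym, a thyroid hormone binding protein gene of the cap, by -0.28. Meox1, a homeobox gene of early progenitors, was at 1 RPKM in 1 of 23 and 7 of 39 cells and differed by -0.71.

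Cited1, a transcriptional co-regulator of the least committed progenitors, was nearly level between the sets. Its medians were 24.8 RPKM in positive and 14.5 in negative cells, and its difference was 0.07. Foxd1 was found in 16 of the 39 cells with Cited1 and in 7 of the 23 cells without it. Wt1, a zinc finger factor of both the cap and the podocyte, had medians of 130 and 124 RPKM and a difference of 0.95, with SDs of 1.79 and 2.38. A list of 100 genes higher in E13.5 cap cells than in interstitium of the same pool had 20 members higher and 0 lower, against 4.16% and 1.09% of all genes, with a median difference of 0.34. Its score difference was 0.42 over all cells and -0.28 at matched gene number. Ccnb1, Cks2 and Rrm2, genes of the cell cycle, and Pax2 were among the 20.

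Genes of commitment to the nephron showed no common shift over all cells. The score of the committing nephron list differed by -0.05, and by -0.35 at matched gene number. Wnt4, the signal that drives the mesenchymal-to-epithelial change, had medians of 3.14 RPKM in positive and 4.84 in negative cells, was at 1 RPKM in 61 of 62, and differed by -0.58. Cdh4, which encodes R-cadherin, had medians of 2.01 and 9.01 RPKM and differed by -1.21, the only member of the list past 1 log2 unit. At matched gene number the Cdh4 difference was -0.08 and that of Wnt4 was -1.29.

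Podocyte genes were level over all cells. Of 14, 9 passed the filter and 0 were higher or lower, close to the 4.16% and 1.09% of all genes. The score was 1.17 against 1.22. Nphs1, the nephrin gene, sat near 1 RPKM in nearly every cell, with medians of 1.32 and 1.66 in the sets and 1.44 in the interstitium. No gene of the proximal tubule, loop of Henle or immune lists passed the filter. At least 3 genes of the mural and smooth muscle list were found in 6 of 23 positive and 3 of 39 negative cells, and 3 or more endothelial genes in 0 of either.

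**Figure D4:**
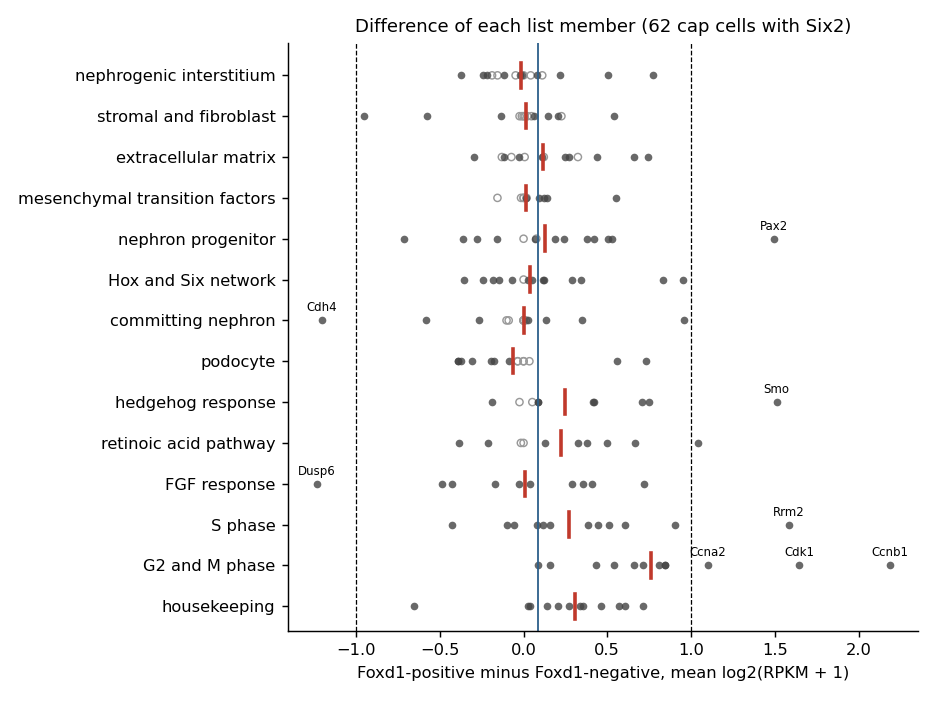
Difference of mean log2(RPKM + 1), Foxd1-positive minus Foxd1-negative, for each member of 14 gene lists (filled points passed the filter, open points did not), with a red bar at each list's median, a blue line at 0.09, the median of all genes, and dashed lines at 1 unit either way. Members of the nephrogenic interstitium and stromal lists lie within 1 unit of 0, while Pax2, Smo, Cdk1 and Ccnb1 lie beyond it.

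Among signalling genes, the hedgehog pathway had 1 member past 1 log2 unit. Of 10 genes, 8 passed the filter, 1 was higher (Smo) and 0 lower, against 4.16% and 1.09% of all genes, and the median difference was 0.25. The score was 1.69 ± 0.58 (SD, n = 23) against 1.31 ± 0.46 (SD, n = 39). Smo, the membrane protein that transduces the signal (Entrez gene 319757, chromosome 6, 29735497 to 29761366), ran from 0 through a median of 14.5 to 467 RPKM in positive cells. In negative cells it ran from 0 through 1.01 to 462 RPKM. The ranges overlapped nearly whole, with 19 of 23 and 20 of 39 cells at 1 RPKM and a difference of 1.51.

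The receptors and effectors of the pathway differed by less. Gli3, the chief repressor of the pathway, had medians of 4.72 and 0.890 RPKM and a difference of 0.75. Boc, a co-receptor, was at 1 RPKM in 9 of 23 and 7 of 39 cells and differed by 0.70. The target genes Ptch1 and Gli1 each differed by 0.42, Gas1, another co-receptor, by 0.08 and Gli2 by -0.19. Without the cells holding 4 or more podocyte genes, which left 4 positive and 8 negative cells, the Smo difference was -1.23 and that of the hedgehog score -0.0014. At matched gene number the score difference was 0.14.

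In the FGF pathway, Dusp6, a feedback phosphatase of ERK signalling, had medians of 9.50 RPKM in positive and 37.5 in negative cells and a difference of -1.23. It was the member of the FGF response list past 1 log2 unit, and the score of that list differed by -0.05. The score of the retinoic acid pathway list differed by 0.24. Of 12 immediate early and stress genes, 7 passed the filter, 2 were higher and 0 lower, against 4.16% and 1.09% of all genes. The median difference over the 12 was -0.01. Ier2 and Fos were the members higher, by 1.72 and 1.15, with medians of 13.9 against 0 and 0.968 against 0 RPKM. Fos was at 1 RPKM in 11 of 23 and 12 of 39 cells, and its interstitial median was 51.7 RPKM.

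Some genes of the cell cycle were higher in the positive cells. Of 12 G2 and M phase genes 3 were higher by 1 log2 unit, of 12 S phase genes 1 was, and 0 were lower, against 4.16% higher among all genes. The G2 and M phase score was 4.30 ± 2.56 (SD, n = 23) against 3.46 ± 2.63 (SD, n = 39), a difference of 0.83, less than the SD, and the median of its members was 0.76. Ccnb1, the cyclin of mitotic entry, had medians of 270 RPKM in positive and 1.64 in negative cells, with 15 of 23 and 20 of 39 cells at 1 RPKM. Its difference was 2.19 and its SDs 4.21 and 3.97, with cells either near 0 or at high levels. Cdk1, the kinase partner of Ccnb1, had medians of 69.4 and 18.7 RPKM and a difference of 1.65, and Ccna2 one of 1.10.

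In S phase, the score differed by 0.35, and Rrm2, a subunit of ribonucleotide reductase, had medians of 160 and 17.2 RPKM and a difference of 1.58. Top2a, the topoisomerase of proliferating cells, was found in 20 of 23 and 32 of 39 cells and differed by 0.71. The cell-cycle differences turned round at matched gene number: the G2 and M phase score difference was then -0.58, and those of Ccnb1, Cdk1 and Rrm2 were -0.60, -1.15 and -0.23. The score of 12 housekeeping genes, of which 0 were past 1 log2 unit, differed by 0.26 over all cells and by -0.32 at matched gene number.

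The genes with the largest differences were not on the stromal, nephrogenic interstitium or 100-gene interstitium lists. Vim, which is among them, had a higher median in the interstitium (151 RPKM) than in either set (62.5 and 11.2 RPKM). Among genes at 1 RPKM in 50% of the higher set, the largest positive differences were those of Dpagt1 (2.32), Hsdl1 (2.22), Gsta4 (2.20), Magoh (2.19), Ccnb1 (2.19), Nuf2 (2.11), Haus7 (2.06) and Vim (2.02). Dpagt1, which encodes the enzyme that begins N-linked glycan assembly, had medians of 27.1 RPKM in positive and 0.168 in negative cells, with 17 of 23 and 10 of 39 at 1 RPKM. Magoh, a core protein of the exon junction complex, had medians of 86.7 and 27.005 RPKM. Nuf2 is a kinetochore gene, and Cks2 (1.93) binds cyclin-dependent kinases. At matched gene number Hsdl1 differed by 0.25, Nuf2 by 0.65 and Pcgf1 by 0.74, and Ccnb1 and Cks2 were below 0. The rest of the 15 were Unk (1.99), Plrg1 (1.99), Pcgf1 (1.98), Nup37 (1.97), Adprh (1.95) and Tmem248 (1.94).

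Vim, the gene of the mesenchymal intermediate filament vimentin (Entrez gene 22352, chromosome 2, 13574311 to 13582826), was the leading gene with a mesenchymal role. It ran from 0 through a median of 62.5 to 398 RPKM in positive cells, with 22 of 23 at 1 RPKM. In negative cells it ran from 0 through 11.2 to 208 RPKM, with 27 of 39 at 1 RPKM. The ranges overlapped, and the interstitial median was 151 RPKM. The mean log2(RPKM + 1) was 5.53 ± 2.08 (SD, n = 23) against 3.52 ± 2.70 (SD, n = 39), and the difference of 2.02 ran from 0.90 to 2.71 over the alternatives. Emp3, a membrane protein gene, had medians of 73.1 and 43.1 RPKM and a difference of 1.43, which was 0.32 at matched gene number.

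The largest negative differences were those of N6amt2 (-1.83), Specc1l (-1.63), Pmvk (-1.62), Tpp1 (-1.60), Dpm2 (-1.57), Dnajc5 (-1.55), Tmem14c (-1.52), Hmgb3 (-1.50) and Bnip3 (-1.49). Hmgb3, a chromatin protein gene, had medians of 106 RPKM in positive and 210 in negative cells, with 20 of 23 and 38 of 39 at 1 RPKM. Bnip3, a mitophagy gene induced by hypoxia, had medians of 10.96 and 36.4 RPKM. Jkamp (-1.42), Ufc1 (-1.42), Odc1 (-1.40), Dcaf12 (-1.37), Bmper (-1.36) and Zfp260 (-1.36) made up the 15. Odc1 encodes the first enzyme of polyamine synthesis, and Bmper, a secreted BMP-binding protein, had medians of 1.10 and 15.1 RPKM. In each of these genes the values of the sets overlapped, since at least 1 cell of each set was at 0 or near it.

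Within the 23 positive cells, the genes whose level followed that of Foxd1 most closely were Alyref, an mRNA export factor (Spearman correlation 0.75), Tmsb4x, the thymosin beta-4 gene (0.65), Mrpl19 (0.63), Hist1h2ab (0.63), Psmd12 (0.63), Apaf1 (0.62), Tubgcp4 (0.61) and Dlgap5 (0.60). Of these 8, Tmsb4x is on the list of 100 interstitium genes and none is on the other stromal lists. They are the top of a ranking over all genes found in 50% of 23 cells, given as a description. In the same 23 cells the Spearman correlation of Foxd1 with gene number was 0.26, and the part of gene number in this ranking was not tested.

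The same split was made in cells that had no part in choosing these genes. Among the 14 E13.5 cap cells with Six2, 3 were Foxd1-positive and 11 negative. Of 10654 genes tested there, 17.9% were higher and 28.7% lower by 1 log2 unit, shares that come with a set of 3 cells. Among the 19 interstitial cells with Six2, 8 were Foxd1-positive and 11 negative, and of 12245 genes 9.48% were higher and 1659 were lower. 

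The stromal and fibroblast list had a positive difference in both of these splits. The stromal and fibroblast score was 3.87 ± 0.86 (SD, n = 8) in Foxd1-positive and 2.43 ± 1.50 (SD, n = 11) in Foxd1-negative interstitial cells with Six2, a difference of 1.44 against -0.03 in the cap. The nephrogenic interstitium score differed there by 0.75, against 0.02 in the cap. Six2 had a median of 10.6 RPKM in these Foxd1-positive cells and 50.6 in the negative ones, so the sets differed in Six2 as well. On the list of 100 interstitium genes, 6 interstitial cells scored no higher than the highest of the 62 cap cells with Six2. Of these 6, 5 are among the 11 Foxd1-negative cells of this split. In the E13.5 cap the stromal score was 1.79 ± 1.39 (SD, n = 3) and 0.95 ± 0.21 (SD, n = 11), a difference of 0.84, and the nephrogenic interstitium score differed by -0.08. Of the 3 positive cells, 1 had Six2 at only 1.22 RPKM and Foxd1 at 30.04. Without that cell the stromal difference was 0.09 and the nephrogenic interstitium one -0.34. Without the cell with Six2 at 82.8 RPKM they were 1.45 and 0.21, so these values rest on single cells. Whether these differences themselves differ from those of the E18.5 cap was not tested.

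Pax2 had a negative difference in both. In the E13.5 cap the 3 Foxd1-positive cells had 0.282, 3.97 and 34.1 RPKM, and the 11 Foxd1-negative cells ran from 1.47 through a median of 18.97 to 33.7 RPKM. The positive cells thus lay on both sides of the negative range. The difference was -1.17, against 1.50 in the E18.5 cap, and it was -0.05 without the cell low in Six2 and -2.44 without the cell with Six2 at 82.8 RPKM. Among interstitial cells with Six2 it was -1.49, with medians of 3.75 and 7.58 RPKM. The nephron progenitor score differed by -0.80 in the E13.5 cap and -0.77 in the interstitial cells, against 0.17 in the E18.5 cap. The first of these was -0.42 without the cell low in Six2. The G2 and M phase score differed by -2.57 and 0.86, against 0.83, and the E13.5 value was -0.91 without that cell. The hedgehog score differed by 0.68 and 0.24, against 0.38. Smo differed by 2.21 and 0.05, against 1.51, and its E13.5 value was 1.07 without the cell low in Six2 and 3.59 without the cell with Six2 at 82.8 RPKM.

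Of the 30 leading genes, 9 (30%) kept their sign in all 3 sets of cells, against 24.8% of the 9720 genes tested in all 3. These were 1 of the 15 positive genes, Vim, and 8 of the 15 negative ones, and the 24.8% was not split by direction. Of the positive genes, 5 of 15 kept their sign in the E13.5 cap, where 41.7% of all genes were above 0. In the interstitial cells 8 of 15 did, where 50.4% of all genes were above 0. Of the negative genes, 10 of 15 kept their sign in the E13.5 cap, against 58.3% of all genes below 0. In the interstitial cells 11 of 15 did, against 49.6%. Vim and Ufc1 were the 2 that passed 1 log2 unit in the same direction in all 3. The Vim difference was 2.02 in the E18.5 cap, 2.79 in the E13.5 cap and 2.11 in the interstitial cells, and that of Ufc1, an enzyme of the ufmylation pathway, was -1.42, -2.17 and -2.02. Leaving out 1 of the 3 positive E13.5 cells moved the E13.5 value of Vim to as low as 1.78 and that of Ufc1 to -0.58, the latter without the cell with Six2 at 82.8 RPKM. Across all genes, 12 (0.123%) were higher and 16 (0.165%) lower by 1 log2 unit in every set, with Vim, Emp3, the chemokine receptor gene Ackr3 and the cyclin gene Ccne1 among the 12. Ackr3 and Ccne1 were picked from these 12 after their values were seen.

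**Figure D5:**
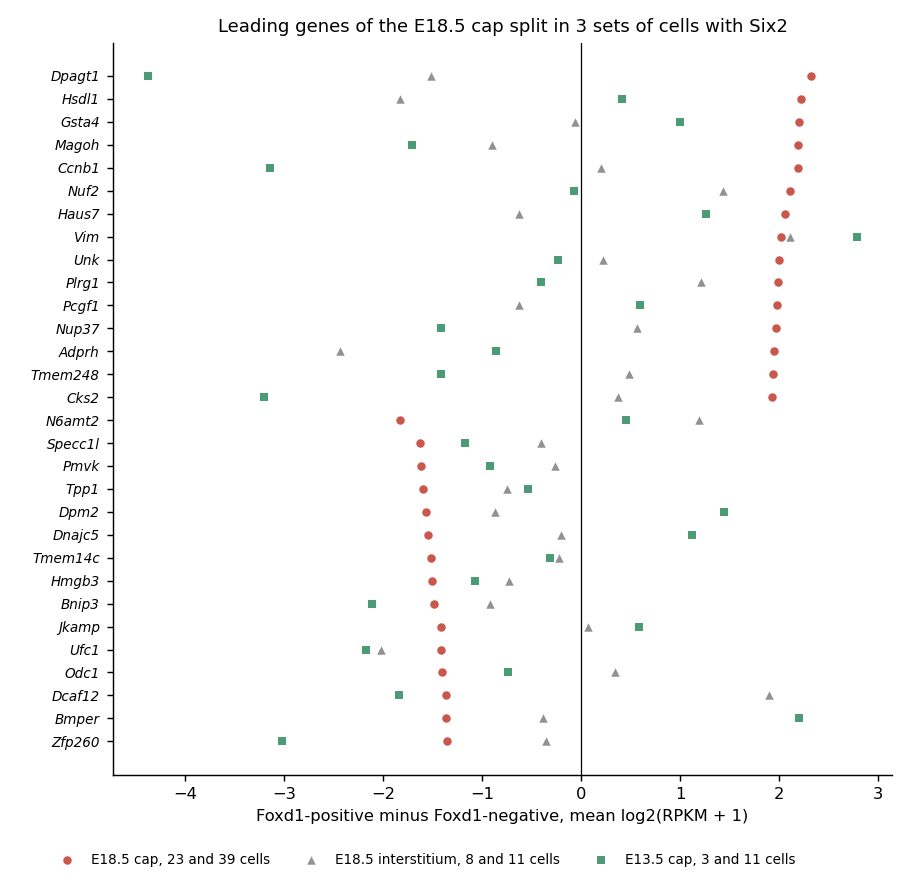
Difference of mean log2(RPKM + 1), Foxd1-positive minus Foxd1-negative, of the 30 leading genes of the E18.5 cap split in 3 sets of cells with Six2. The E18.5 cap points chose the genes. The other points lie on both sides of 0, and Vim and Ufc1 are past 1 unit on the same side in all 3.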

How the data were processed

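Mouse embryonic kidney cells were flow sorted, captured on the Fluidigm C1 and sequenced, 1 cell per sample. The authors deposited 1 table of RPKM for 36186 gene entries in 237 cells. Per the submitters' processing notes it was made with TopHat on mm10. The version, gene models and counting rule are not given in the sources used here. Cells were grouped by source name, genotype and age, and 1 cell whose labels disagree entered no comparison. No 2 cells were alike (highest correlation 0.731), and no doublet caller was run.

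RPKM values, as deposited, were used as log2(RPKM + 1) with a pseudocount of 1, and averaged over cells with the SD between cells. Such differences understate the change of low genes. A gene was detected at 1 RPKM or more and tested where detected in 10% of the cells of either set. No test was run because each set is 1 sample. Of 345 genes in 31 lists, 1 was not matched to the table. The members and lists were chosen with earlier results of these data known. Named genes are Foxd1, Six2, list members, the 15 largest differences each way among genes found in 50% of the higher set, and the 8 genes that follow Foxd1 in positive cells. Gm, Rik and LOC entries and mitochondrial, ribosomal protein and haemoglobin genes were left out of the rankings. Intervals are exact Clopper-Pearson 95% intervals. Alternatives varied the pseudocount, scaling, thresholds, filter and cells left out. The split of interstitial cells with Six2, leaving out the 2 cells with most stromal genes, keeping only Top2a cells, and leaving out each E13.5 cell were chosen after seeing the data. The difference calculation was tested on simulated data. Python 3.11.15, pandas 2.3.3, NumPy 2.4.6, SciPy 1.17.1 and matplotlib 3.10.9 were used.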

Additional observations from a re-analysis of the deposited data

Results flagged for a closer look

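Among the 8 interstitial cells with Six2 and Foxd1 at 1 RPKM or more, the lowest cell stood apart from the rest on the list of 100 interstitium genes. Its score was 3.05, the median of the 8 was 4.31, and its gap to the nearest cell was 0.559 of the whole range. For a single list and independent cells, about 1 group in 20 has such a cell by chance. Several lists were searched at both ends, so a flagged cell is less rare than that, and these cells count as 1 sample.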

How the results depend on the processing

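No paired analysis was possible because the labels pair no cells. Of the genes higher and lower in Foxd1-positive progenitors (465 and 122), the counts were 1592 and 497 with a pseudocount of 0.1, and 23 and 1 with a pseudocount of 10. They were 1029 and 1504 at matched gene number, 719 and 221 without the cells high in a pseudogene, and 1130 and 1356 from the ratio of mean RPKM. Without cells with 3 or more stromal genes (9 and 14 cells left) they were 893 and 1037, and without cells with 4 or more podocyte genes (4 and 8 left) 1852 and 1927. With Foxd1 at 5 RPKM or more 700 were higher, and with Six2 at 10 or more 191 were lower. The stromal and fibroblast score difference was -0.68 without cells with 4 or more podocyte genes.

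Single genes changed sign. At matched gene number Ccnb1 was at -0.60, Cks2 at -0.11, Cdk1 at -1.15, Rrm2 at -0.23 and Odc1 at 0.44. Without cells with 3 or more stromal genes Nup37 was at -0.18 and Fos at -0.74. Without those with 4 or more podocyte genes Nup37 was at -1.10, Smo at -1.23, Fos at -0.40 and Specc1l at 0.061. Blvrb was at -0.33 from the ratio of means. The cause was not tested. Over the alternatives, the nephrogenic interstitium score difference ran from -0.38 to 0.10, the interstitium reference from -0.06 to 0.29 and the progenitor score from -0.47 to 0.24. Depth is unknown, so an undetected gene may lie below what a library could show. In the E13.5 cap, leaving out 1 cell moved the nephron progenitor score difference between -1.08 and -0.42.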

Other observations

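Other gene groups of the 62 progenitors differed little between the Foxd1 sets. For the counts below, 4.16% of all genes were higher and 1.09% lower by 1 log2 unit. Of 10 imprinted growth genes, 9 passed the filter and 1 was higher: Mest, a paternally expressed gene, had medians of 505 RPKM in positive and 404 in negative cells and a difference of 1.03. The 12 glycolysis genes had 1 member past 1 log2 unit, Hk2, a hexokinase, with medians of 50.3 and 10.96 RPKM and a difference of 1.01, while the score of the list differed by 0.04. The 12 oxidative phosphorylation genes had 0 members past 1 log2 unit and a score difference of 0.02.

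None of the Wnt target, Notch, BMP response, p53 target, mesenchymal transition or homeobox network lists had a member past 1 log2 unit. In lists this short that is close to the shares of all genes. Their score differences were -0.11, -0.02, -0.09, 0.21, 0.08 and 0.12 in that order. Mural and smooth muscle genes had a score of 0.63 ± 0.46 (SD, n = 23) in positive and 0.66 ± 0.51 (SD, n = 39) in negative cells. Ureteric and erythroid scores differed by 0.01 and -0.01.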
